A study of Homo sapiens with 4 samples.

Results

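The genes described here are the CDK inhibitors CDKN1A, CDKN1B, CDKN1C, CDKN2A, CDKN2B, CDKN2C and CDKN2D and the RB pocket protein genes RB1, RBL1 and RBL2, chosen by symbol, which are 10 of the 57992 gene rows in the deposited table. They were measured by poly(A) RNA sequencing in MOLM13 cells, an established human acute myeloid leukaemia line with a KMT2A fusion, in a derivative that the labels call VEN-R (resistant to venetoclax, a BCL2 inhibitor). One group carried a short hairpin RNA against PRMT9 and has the genotype PRMT9 knockdown (PRMT9 shRNA, 2 libraries), and the other carried a control hairpin and has the genotype WT (control shRNA, 2 libraries). Both groups were induced with doxycycline, and the values come from 1 cell line with no uninduced or parental cells beside it. PRMT9 is a protein arginine methyltransferase. Whether the 2 libraries of a group are separate cultures, technical repeats or different hairpins is not said in the labels, so p-values and SDs measure only the spread between these libraries.

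Progress from G1 into S phase is driven by cyclin-dependent kinases (CDKs), which phosphorylate the pocket proteins and so release E2F transcription factors that switch on replication genes. The CIP/KIP inhibitors CDKN1A (p21), CDKN1B (p27) and CDKN1C (p57) bind several cyclin-CDK complexes, above all those of CDK2, whereas the INK4 inhibitors CDKN2A (p16, with ARF from an alternative reading frame), CDKN2B (p15), CDKN2C (p18) and CDKN2D (p19) bind CDK4 and CDK6. Of the pocket proteins, RB1 restrains the activating E2Fs, while RBL1 (p107) and RBL2 (p130) work mostly with E2F4 and the MuvB proteins in the DREAM repressor. RBL2 is typical of resting cells and RBL1 of cycling cells, and RBL1 is itself an E2F target.

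The libraries held 28592902 to 33845172 counts each. PRMT9 had 81 and 78 counts in the PRMT9 shRNA libraries, against 398 and 406 counts in the control shRNA libraries, so the targeted RNA followed the labels (log2 fold change -2.48, SE 0.12, edgeR adjusted p = 1.13e-11). Myeloid markers were present, including LYZ, CEBPA and FLT3, but CSF2RA was at 0 in all libraries and CD68 had too few reads to be tested. Of 16 myeloid markers, 14 could be tested, and 11 were called higher and 2 lower in the PRMT9 shRNA libraries. Among all tested genes, 33.4% were called higher and 34.5% lower. The summed level of the 16 myeloid markers was 959 to 963 RPKM (reads scaled to exon length and library size, as deposited) in the PRMT9 shRNA libraries, against 680 to 693 RPKM in the control shRNA libraries. Lymphoid markers summed to 18 to 18.2 RPKM in the PRMT9 shRNA libraries, against 19.1 to 19.8 RPKM in the control shRNA libraries, mostly NCAM1 and PAX5. Of 8 epithelial and stromal markers EPCAM was at 0, and their sum was 336 to 340 RPKM in the PRMT9 shRNA libraries, against 138 to 145 RPKM in the control shRNA libraries, nearly all of it VIM. Erythroid and megakaryocyte markers summed to 0.145 to 0.159 RPKM in the PRMT9 shRNA libraries, against 0.0579 to 0.0588 RPKM in the control shRNA libraries. Of these 7 markers, 5 were at 0 in all libraries, HBA1 and HBB among them, and the single one tested, ITGA2B, was called higher (log2 fold change 1.18, edgeR adjusted p = 0.0158). The part of these marker shifts in the results that follow was not tested.

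Promoters are shown first for 3 of the genes, because the pocket genes RBL1 and RBL2 moved in opposite directions and CDKN1A was the most abundant inhibitor. Each is from RefSeq (GRCh38.p14) and runs from 250 bases before to 50 after an annotated start, on the gene's own strand. The intervals are chr20:37095948-37096247 (minus strand) for RBL1, chr16:53434221-53434520 (plus strand, the first of its 2 entries) for RBL2 and chr6:36678464-36678763 (plus strand) for CDKN1A. Capitals mark E2F words in RBL1, the cell cycle homology region (CHR) word in RBL2 and GC boxes in CDKN1A.
RBL1: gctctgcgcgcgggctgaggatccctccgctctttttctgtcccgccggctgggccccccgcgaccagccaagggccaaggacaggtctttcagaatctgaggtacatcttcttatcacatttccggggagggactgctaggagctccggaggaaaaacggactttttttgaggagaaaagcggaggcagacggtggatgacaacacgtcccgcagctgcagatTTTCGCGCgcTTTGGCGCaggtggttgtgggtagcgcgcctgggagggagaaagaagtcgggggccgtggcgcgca
RBL2: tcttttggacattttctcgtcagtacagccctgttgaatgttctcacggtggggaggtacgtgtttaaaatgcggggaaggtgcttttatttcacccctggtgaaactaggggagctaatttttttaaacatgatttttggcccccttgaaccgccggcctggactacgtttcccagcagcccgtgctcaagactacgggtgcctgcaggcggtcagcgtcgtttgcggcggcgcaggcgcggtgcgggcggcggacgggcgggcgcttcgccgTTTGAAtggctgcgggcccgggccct
CDKN1A: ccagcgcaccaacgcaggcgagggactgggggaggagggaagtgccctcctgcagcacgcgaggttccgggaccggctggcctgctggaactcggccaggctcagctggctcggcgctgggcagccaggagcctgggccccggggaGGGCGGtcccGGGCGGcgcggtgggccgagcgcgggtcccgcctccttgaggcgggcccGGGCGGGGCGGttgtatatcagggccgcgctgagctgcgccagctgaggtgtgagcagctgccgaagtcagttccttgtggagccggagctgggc

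Motifs were searched on both strands as the E2F words TTTCCCGC, TTTCGCGC, TTTGCCGC and TTTGGCGC, the CHR words TTTGAA and TTCGAA, the GC box GGGCGG and the CCAAT box CCAAT. The RBL1 promoter held 2 E2F words, TTTCGCGC beginning 26 bases and TTTGGCGC beginning 16 bases before the start, and they do not overlap. An E2F word was present in 1164 of the 35116 promoters in the table (3.31%). Of the 10 genes, 9 have an entry, some more than one, and RBL1 held the single entry of their 13 with an E2F word. RBL2 held TTTGAA from base 25 after the start, a word found with TTCGAA in 16.4% of all promoters, and no E2F word. CDKN1A held 4 GC boxes, the last 2 of which share 1 base, and GC boxes occurred in 8 of the 13 entries of the 9 genes and in 45.0% of all promoters. A CCAAT box was found in 4 of the 13 entries, including that of CDKN1B, and in 34.6% of all promoters. A match is a description of these letters and not evidence of binding, CDKN1C had no entry, and the single entry for RB1 lies 172699 bases inside the gene and so is not its main promoter.

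Of the 10 genes, 8 had enough reads to be tested, 6 of these changed, and CDKN2A and CDKN2B had no read in any library. CDKN1A, CDKN1B, CDKN1C and RBL2 rose after PRMT9 knockdown, CDKN2C and RBL1 fell, and RB1 and CDKN2D did not pass the test. The 6 called genes stand against 68.0% of all 15193 tested genes that were called in either direction (33.4% higher and 34.5% lower), so the count itself is close to that of any genes. The median absolute log2 fold change of all tested genes was 0.40. CDKN1B and RBL2 changed by less than that (percentiles 39.1 and 20.3 of all tested genes). CDKN1A, CDKN2C and RBL1 changed by more (percentiles 67.5, 67.7 and 75.5). CDKN1C passed the low-count filter only through the PRMT9 shRNA libraries, where it was high, so its call adds no support to a pattern among the CIP/KIP genes. In bulk RNA, a change in RNA per cell and a change in the fraction of cells that express a gene cannot be told apart.

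**Figure D1:**
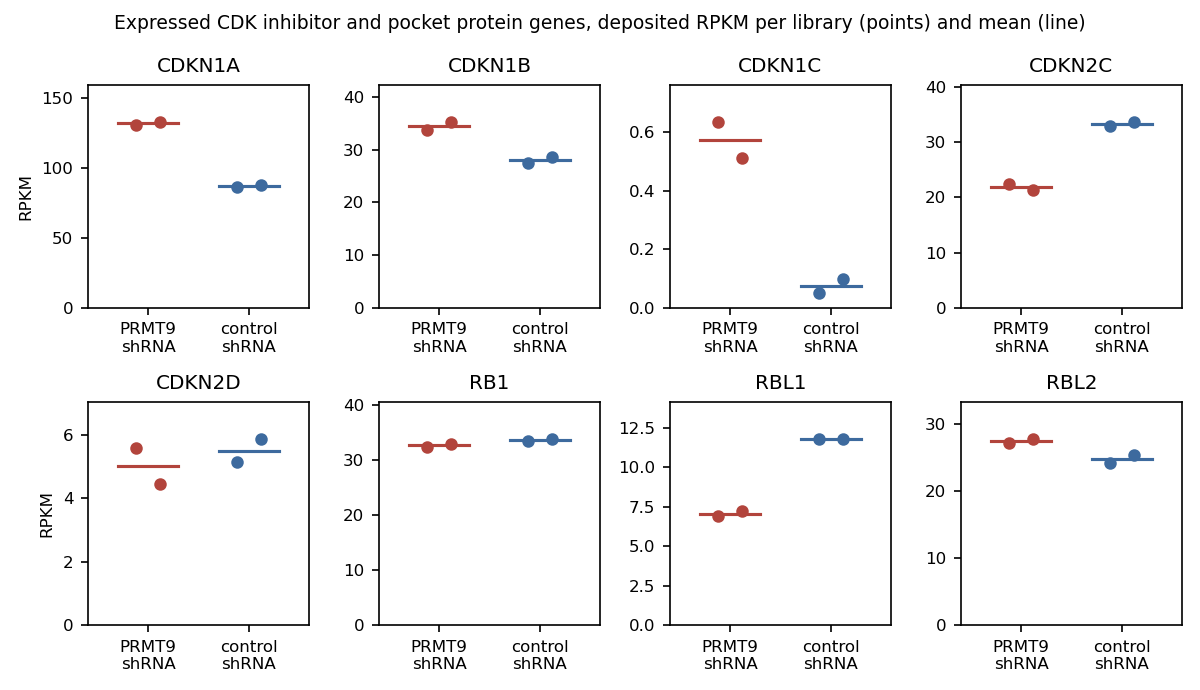
Deposited RPKM of the 8 detected genes, 1 point per library and a line for the mean, with the PRMT9 shRNA libraries on the left of each panel and the control shRNA libraries on the right. CDKN1A, CDKN1B, CDKN1C and RBL2 lie higher and CDKN2C and RBL1 lower in both PRMT9 shRNA libraries, while CDKN2D overlaps between the groups. RB1 also lies slightly lower in both PRMT9 shRNA libraries but was not called. A lack of overlap, in CPM, was seen in 83.3% of all tested genes.

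CDKN1A, an inhibitor that also acts in differentiation, was the most abundant of the 10 in every library (chromosome 6, 36676460 to 36687339, plus strand). It had 131 and 133 RPKM in the PRMT9 shRNA libraries, against 86.4 and 87.4 RPKM in the control shRNA libraries. The groups did not overlap, and the 2 libraries within each were close. Such a lack of overlap, in CPM, was seen in 83.3% of all tested genes. The rise was 1.52-fold (95% confidence interval 1.47 to 1.57; log2 fold change 0.60, SE 0.02, edgeR adjusted p = 2.20e-13). Per length, CDKN1A lay at percentile 98.6 of all tested genes in the PRMT9 shRNA libraries and at percentile 97.7 in the control shRNA libraries. About 3.21% of its 50-base windows also occur in the noncoding gene DINOL.

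CDKN1B, the inhibitor of CDK2 that accumulates in resting cells, rose by less (chromosome 12, 12715058 to 12722371, plus strand). It had 33.7 and 35.3 RPKM in the PRMT9 shRNA libraries, against 27.4 and 28.6 RPKM in the control shRNA libraries, with no overlap. The difference was 1.23-fold (1.17 to 1.30; log2 fold change 0.30, SE 0.03, edgeR adjusted p = 5.51e-07). CDKN1A RNA per unit of CDKN1B RNA was 3.89 and 3.77 in PRMT9 shRNA libraries and 3.15 and 3.05 in control shRNA libraries, in RPKM.

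CDKN1C, an imprinted gene known in the mouse to hold blood stem cells in quiescence, was close to undetected in the controls (chromosome 11, 2883213 to 2885881, minus strand). It had 51 and 45 counts in the PRMT9 shRNA libraries, against 4 and 7 counts in the control shRNA libraries, or 0.636 and 0.512 RPKM against 0.0505 and 0.0967 RPKM. The counts do not overlap, and every one is small. The fitted rise was 7.74-fold with a wide interval of 4.26 to 14.0 (log2 fold change 2.95, SE 0.41, edgeR adjusted p = 5.74e-06), and on the log2(RPKM + 1) scale, which shrinks low genes, it was 0.55. Even after the rise it contributed 0.385% and 0.304% of the CIP/KIP RNA in the PRMT9 shRNA libraries, against 0.0444% and 0.0833% in the control shRNA libraries. Nearby on chromosome 11, KCNQ1 (log2 fold change 0.69) and SLC22A18 (0.77), which belong to the same imprinted region, were called higher and the noncoding KCNQ1OT1 (-0.41) lower.

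The INK4 class had a single abundant member. CDKN2C (chromosome 1, 50960745 to 50974633, plus strand), an inhibitor of CDK4 and CDK6 whose RNA is known to be induced by E2F, had 22.4 and 21.4 RPKM in the PRMT9 shRNA libraries, against 33.0 and 33.7 RPKM in the control shRNA libraries. Both knockdown libraries were lower than both controls. The level in the PRMT9 shRNA libraries was 0.656 of the control level (0.625 to 0.690; log2 fold change -0.61, SE 0.03, edgeR adjusted p = 6.13e-11). CDKN2D (chromosome 19, 10566462 to 10569059, minus strand), the other INK4 gene with reads, had 5.60 and 4.45 RPKM in the PRMT9 shRNA libraries, against 5.13 and 5.87 RPKM in the control shRNA libraries. These ranges overlap, and the log2 fold change of -0.13 had an interval of -0.38 to 0.12 (edgeR adjusted p = 0.341). Without PRMT9 shRNA replicate 2 the CDKN2D value was 0.04 (adjusted p = 0.830 in edgeR), so that library sets its sign.

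CDKN2A and CDKN2B had 0 counts in each of the 4 libraries (chromosome 9, 21967753 to 21995301 and 22002903 to 22009363, minus strand). A count of 0 allows up to 3 counts a library, which is at most 0.0224 and 0.0204 RPKM of CDKN2A in the PRMT9 shRNA libraries, against 0.0229 and 0.0245 RPKM in the control shRNA libraries, and up to 0.0261 RPKM of CDKN2B in any library. These limits cover counting error only. The antisense RNA CDKN2B-AS1, which spans CDKN2B on the other strand, had 5 and 8 counts in the PRMT9 shRNA libraries, against 5 and 5 counts in the control shRNA libraries. MTAP, the methylthioadenosine phosphorylase gene whose end lies 30101 bases from CDKN2A, was expressed at 2.23 RPKM in PRMT9 shRNA libraries, against 2.45 RPKM in control shRNA libraries (means of 2). In the 1500000 bases on that side, 4 of 20 protein-coding genes were tested (FOCAD, HACD4, KLHL9 and MTAP), and 15 were at 0 in every library. These 15 were all interferon genes. HACD4 (0.82) and FOCAD (0.11) were called higher and KLHL9 (-0.29) and MTAP (-0.14) lower, but several of these calls were lost in the alternatives. In the 3000000 bases beyond CDKN2A all 4 protein-coding genes, CDKN2B included, were at 0 in every library. DMRTA1 and ELAVL2 were among them. From RNA counts alone, a silent gene and a deleted gene cannot be told apart.

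**Figure D2:**
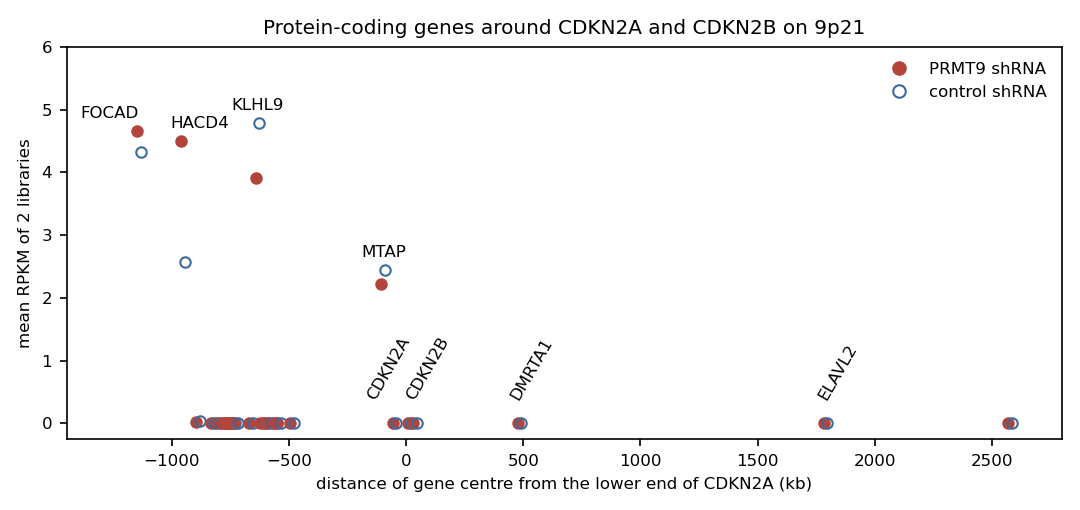
Mean RPKM of 2 libraries (vertical axis) of the protein-coding genes around CDKN2A and CDKN2B against the distance of each gene's centre from the lower end of CDKN2A in kilobases, with filled points for PRMT9 shRNA and open points, set slightly to the right, for control shRNA. FOCAD, HACD4, KLHL9 and MTAP are expressed on one side, where 15 of the 20 protein-coding genes lie at 0. These 15 are all interferon genes. CDKN2A, CDKN2B, DMRTA1 and ELAVL2 lie at 0 in both groups.

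Among the pocket proteins, RBL1 fell, RBL2 rose slightly and RB1 did not pass the test. RBL1 (chromosome 20, 36996349 to 37095995, minus strand), whose promoter with its 2 E2F words is printed above, had 6.89 and 7.19 RPKM in the PRMT9 shRNA libraries, against 11.8 RPKM in each control shRNA library. The groups were well separated. Its level was 0.599 of the control level (0.565 to 0.636; log2 fold change -0.74, SE 0.04, edgeR adjusted p = 5.16e-11), and 4.03% of its 50-base windows are shared with other genes.

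RBL2 (chromosome 16, 53433977 to 53491649, plus strand) had 27.0 and 27.7 RPKM in the PRMT9 shRNA libraries, against 24.1 and 25.3 RPKM in the control shRNA libraries. The groups did not overlap, and the difference was small. It was 1.11-fold (1.07 to 1.15; log2 fold change 0.15, SE 0.03, edgeR adjusted p = 4.99e-05). With upper-quartile scaling the log2 fold change was 0.24, and on log2(RPKM + 1) without a filter it was 0.14 and did not pass (limma adjusted p = 0.0657). About 16.2% of RBL2's 50-base windows occur in other genes, most often in AC007342.6, whose counts are not given here. AKTIP, another of these genes, overlaps the end of RBL2 by 610 bases on the other strand. AKTIP had 94 and 99 counts in the PRMT9 shRNA libraries and 132 and 100 counts in the control shRNA libraries, against 5175 or more for RBL2.

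RB1 (chromosome 13, 48303751 to 48481986, plus strand), the founding pocket protein gene, had 32.4 and 33.0 RPKM in the PRMT9 shRNA libraries, against 33.6 and 33.9 RPKM in the control shRNA libraries. The groups do not overlap, but the gap is about the size of the spread. The log2 fold change of -0.04 had an interval of -0.09 to 0.01 (edgeR adjusted p = 0.145), and upper-quartile scaling turned its sign (0.05, adjusted p = 0.0903 in edgeR). LPAR6, a lysophosphatidic acid receptor gene that lies within RB1 on the opposite strand, was called higher by 1.93 on the log2 scale (SE 0.08, edgeR adjusted p = 2.01e-12), with 24.6 ± 0.579 CPM in PRMT9 shRNA libraries and 6.48 ± 0.514 CPM in control shRNA libraries (SD, n = 2 each). None of RB1's 50-base windows occur in another gene's transcripts (0 of 6541), LPAR6 included.

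**Figure D3:**
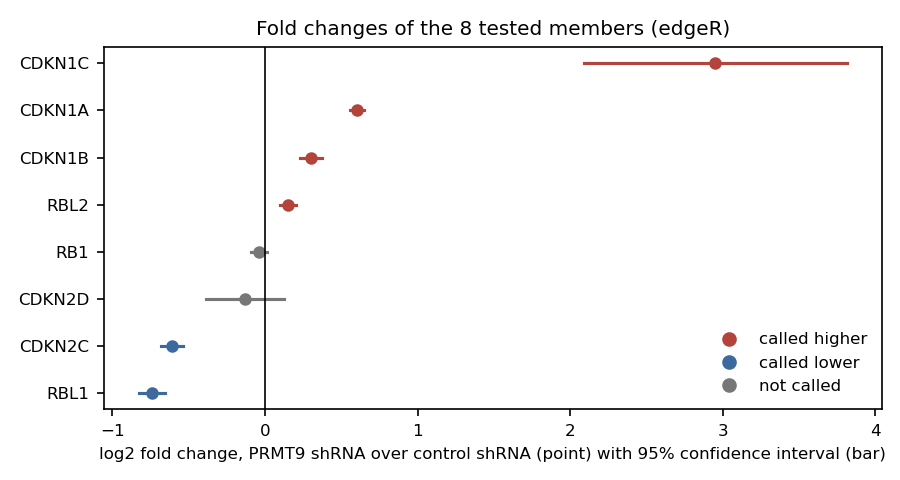
Log2 fold change of PRMT9 shRNA over control shRNA (horizontal axis) with the 95% confidence interval for the 8 tested genes, coloured by the edgeR call. CDKN1C has the largest value and the widest interval, from 2.09 to 3.81, whereas the intervals of RB1 and CDKN2D cross 0.

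Per length, the order of the levels changed between groups. In the PRMT9 shRNA libraries it was CDKN1A (132 RPKM), CDKN1B (34.5), RB1 (32.7), RBL2 (27.4), CDKN2C (21.9), RBL1 (7.04), CDKN2D (5.02) and CDKN1C (0.574), each neighbouring pair without overlap. In the control shRNA libraries it was CDKN1A (86.9 RPKM), RB1 (33.7), CDKN2C (33.4), CDKN1B (28.03), RBL2 (24.7), RBL1 (11.8), CDKN2D (5.50) and CDKN1C (0.0736), where RB1 and CDKN2C overlap. CDKN1B thus had rank 2 in the PRMT9 shRNA libraries and rank 4 in the control shRNA libraries, and CDKN2C rank 5 and rank 3. The same order came from TMM-scaled counts per kilobase.

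Summed over each class, CIP/KIP RNA was 165 and 169 RPKM in the PRMT9 shRNA libraries, against 114 and 116 RPKM in the control shRNA libraries. INK4 RNA summed to 27.98 and 25.79 RPKM in the PRMT9 shRNA libraries, against 38.1 and 39.6 RPKM in the control shRNA libraries. The ratio of CIP/KIP to INK4 RNA was therefore 5.91 and 6.54 in the PRMT9 shRNA libraries and 2.99 and 2.93 in the control shRNA libraries. Pocket protein RNA as a whole differed little, at 66.3 and 67.9 RPKM in the PRMT9 shRNA libraries, against 69.5 and 70.9 RPKM in the control shRNA libraries, although its makeup differed. RBL2 per RBL1 was 3.92 and 3.85 in the PRMT9 shRNA libraries, against 2.05 and 2.14 in the control shRNA libraries. With 2 libraries against 2, an exact two-sided permutation test of any of these ratios cannot go below p = 0.333, the value each of the 6 ratios computed here gave, so the ratios are given as descriptions.

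**Figure D4:**
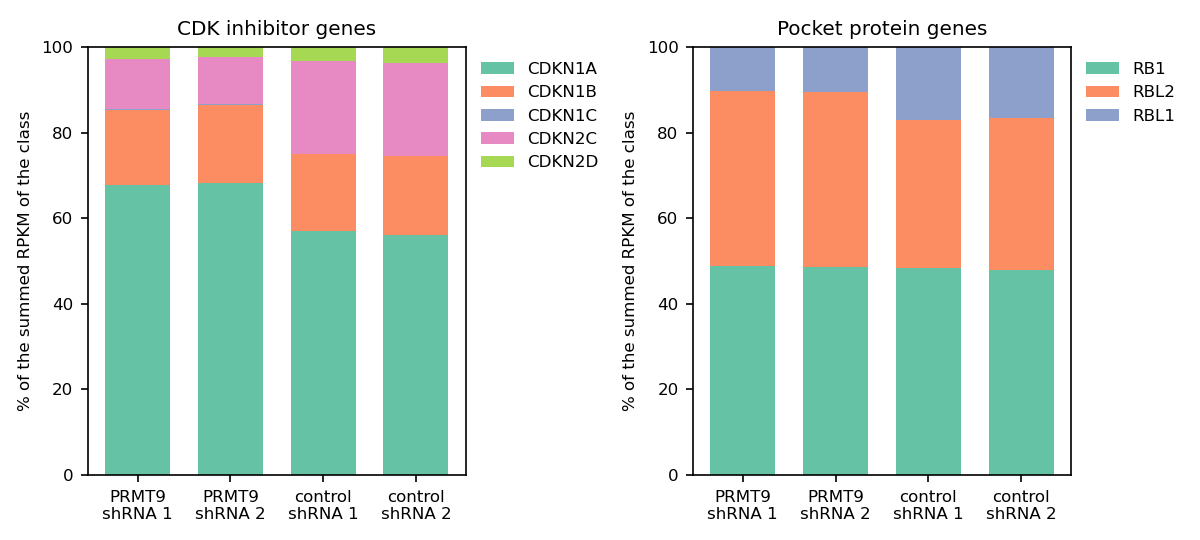
Share of each gene in the summed RPKM (vertical axis, percent) of the CDK inhibitor genes on the left and of the pocket protein genes on the right, 1 bar per library with the PRMT9 shRNA libraries first. CDKN1A makes up 67.8% and 68.3% of inhibitor RNA in PRMT9 shRNA libraries and 56.9% and 56.1% in control shRNA libraries, and RBL1 10.4% and 10.6% against 16.9% and 16.6% of pocket protein RNA.

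The kinases and cyclins that the inhibitors bind were examined beside them. Counts of called genes in this and the later lists stand against 33.4% of all tested genes called higher and 34.5% called lower. The lists were chosen with earlier results of these data known, so their counts and medians are descriptions only. Of the D-type cyclins and their kinases, CDK6 (-0.39), CDK4 (-0.29) and CCND3 (-0.11) fell, and CCND1 rose by 1.08 on the log2 scale from a low level, with 12.4 ± 1.17 CPM in PRMT9 shRNA libraries and 5.86 ± 0.359 CPM in control shRNA libraries (SD, n = 2 each). With upper-quartile scaling 2 genes of this list were called lower in place of 3. CCND2, another D-type cyclin, overlapped between the groups (edgeR adjusted p = 0.617), although the list had 2 genes called higher in place of 1 without control shRNA replicate 2. CDK4 and CDK6 together summed to 107 and 109 RPKM in PRMT9 shRNA libraries, against 133 and 139.7 RPKM in control shRNA libraries, and CDKN2C per unit of this sum was 0.209 and 0.195 in PRMT9 shRNA libraries, against 0.248 and 0.241 in control shRNA libraries. Of the 8 genes of cyclins E, A and B with CDK1 and CDK2, 7 fell and CCNA1 did not pass, with a median log2 fold change of -0.74. The cyclin E genes CCNE2 (-1.50) and CCNE1 (-1.35) and the cyclin A gene CCNA2 (-1.19) fell furthest, followed by CDK1 (-0.66), CCNB2 (-0.56) and CCNB1 (-0.54). CDK2, the main target of the CIP/KIP proteins, fell by 0.82, to 11.1 ± 0.184 RPKM in PRMT9 shRNA libraries, against 19.8 ± 0.113 RPKM in control shRNA libraries (SD, n = 2 each). CIP/KIP RNA per CDK2 RNA was 15 in each PRMT9 shRNA library, against 5.79 and 5.85 in the control shRNA libraries. Of the CDK-activating kinase genes, MNAT1 (0.28) rose, CCNH (-0.20) fell and CDK7 (0.03) did not pass, and the call of CCNH was lost with upper-quartile scaling, in DESeq2, in limma on log2(RPKM + 1) without a filter and without control shRNA replicate 2.

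Transcription factors of the E2F and DP families were mostly lower. Pocket proteins bind E2F1 to E2F5, whereas E2F6, E2F7 and E2F8 lack the domain that binds them. Of 10 E2F and DP genes 9 fell and 1 rose, with a median of -1.05, against a median of 0.00 over all tested genes. The activating factors E2F2 (-1.91), E2F1 (-1.39) and E2F3 (-1.25), the atypical repressors E2F7 (-1.42) and E2F8 (-1.15), E2F4 (-0.59), E2F5 (-0.37), E2F6 (-0.95) and the partner TFDP1 (-0.86) were among the falls, and TFDP2 (0.57) was the rise. Pocket protein RNA per unit of summed E2F1, E2F2 and E2F3 RNA was 4.91 and 5.29 in PRMT9 shRNA libraries, against 2.08 and 2.07 in control shRNA libraries. Of 9 genes of the MuvB core and its partners, 8 fell (median -0.74), including MYBL2 (-1.37), FOXM1 (-1.14), MYBL1 (-1.36), LIN9 (-0.68), LIN52 (-0.84), LIN54 (-0.74), RBBP4 (-0.52) and DYRK1A (-0.32), the kinase that assembles DREAM. LIN37 (0.56, edgeR adjusted p = 0.0233) was called higher, at 2.65 CPM in PRMT9 shRNA libraries and 1.80 CPM in control shRNA libraries. It lost its call at a threshold of 0.01, in DESeq2, in limma on RPKM and without PRMT9 shRNA replicate 1 or control shRNA replicate 1. On the list of G1/S genes that E2F activates, 20 of 21 fell and 0 rose (median -0.91), and CDT1 did not pass. CCNE1 and CCNE2 are on this list too. MCM3, a subunit of the replicative helicase, TYMS, a nucleotide synthesis gene, and PCNA, the replication clamp gene, were among the falls.

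**Figure D5:**
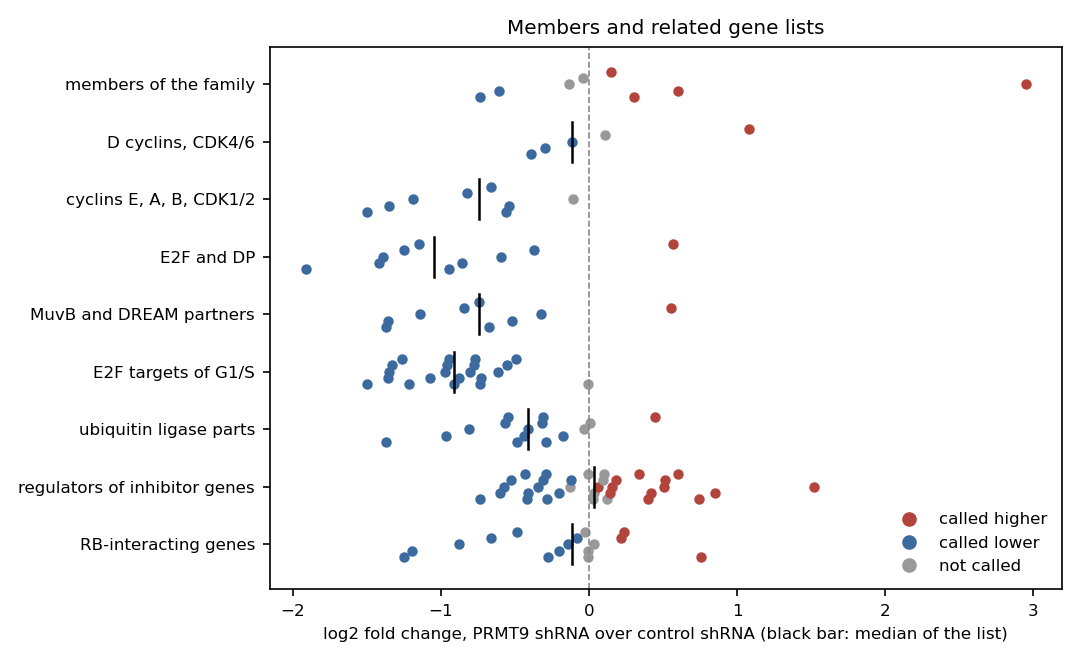
Log2 fold change of PRMT9 shRNA over control shRNA for the 8 tested genes and for 8 related gene lists, 1 point per tested gene coloured by the edgeR call and a black bar for the median of each related list. The E2F, MuvB and G1/S lists lie mostly below 0, with medians of -1.05, -0.74 and -0.91, whereas the regulators of the inhibitor genes have a median of 0.03. The lists were chosen with earlier results of these data known.

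Genes of ubiquitin ligases mostly fell, whereas transcriptional regulators of the inhibitor genes were mixed. Of 15 genes of ubiquitin ligases that degrade the inhibitors or cyclins, 12 fell and CUL4B (0.44) rose (median -0.41). SKP2, the receptor that marks CDKN1B for degradation, fell by 0.81, its cofactor CKS1B by 0.48, and DTL, the receptor that marks CDKN1A, by 0.96. CDC20, an activator of the anaphase-promoting complex, fell by 1.37. Protein levels were not measured. Of 33 transcriptional regulators of the inhibitor genes, 13 rose and 13 fell (median 0.03), beside 33.4% and 34.5% of all tested genes. EZH2, a Polycomb methyltransferase, fell by 0.74, while MDM2 (0.40), a ubiquitin ligase gene, rose.

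Among 16 genes for proteins that bind RB1 or dephosphorylate it, 9 fell and 3 rose (median -0.11), with DNMT1 at -0.88 and RBBP8 at -1.25, and with ARID4A (0.76), KDM5A (0.24) and SIN3B (0.21) as the rises. With upper-quartile scaling 6 genes of this list were called higher. The 3 phosphatase genes PPP1CA, PPP1CB and PPP1CC did not pass. Of 11 tested genes listed as other brakes on the cycle, 5 rose and 4 fell (median 0.06). For both lists, the shares over all tested genes were 33.4% called higher and 34.5% called lower. PKMYT1, the gene of an inhibitory kinase of CDK1, had the largest change of the list (-1.73, edgeR adjusted p = 1.74e-12). BTG2, an antiproliferative gene, rose by 1.64 and CCNG2, a cyclin that slows the cycle, by 1.22. BTG1 (0.59) rose as well, whereas the kinase gene WEE1 (-0.72) and the phosphatase gene CDKN3 fell.

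The genes nearest in profile to the most raised and the most lowered member were sought by the Euclidean distance of log2 CPM over the 4 libraries, each gene centred on its mean. Nearest to CDKN1C were PTGDS, a prostaglandin D synthase gene (distance 0.106), NLRP4 (0.128) and PLVAP (0.134). PTGDS had 1.99 CPM in PRMT9 shRNA libraries and 0.276 CPM in control shRNA libraries (means of 2). NLRP4 had 0.436 CPM and PLVAP 0.433 CPM in PRMT9 shRNA libraries, against 0.0176 CPM of each in control shRNA libraries. PTGDS, NLRP4 and PLVAP, like CDKN1C, were tested only because of their counts in the PRMT9 shRNA libraries, and no fold is given for these neighbours. Nearest to RBL1 were POLE, the catalytic subunit gene of DNA polymerase epsilon (distance 0.0153), ERH (0.0156) and HMGB3, a chromatin protein gene (0.0164), with log2 fold changes of -0.75, -0.73 and -0.75. These distances rest on 4 libraries in 2 groups, so fold changes close to that of RBL1 follow from the choice by profile.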

How the data were processed

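The members and gene lists were chosen with earlier results of these data known. Raw read counts per Ensembl gene and RPKM values were deposited by the authors for 4 libraries, with gene coordinates on GRCh38. The submitters' processing notes name Trimmomatic 0.39, STAR 2.7.2a and SAMtools 1.10. Which program counted the reads, on which strand and with which annotation was not given in the sources used here. RPKM as deposited were counts over exon length and library total, divided by a library factor of 0.979 to 1.01. Genes were filtered with filterByExpr (minimum count 10), which left 15193 of 57992 rows, and tested with edgeR 4.0.16 (quasi-likelihood test, TMM scaling, robust estimation, group term) in R 4.3.3. Adjusted p-values are Benjamini-Hochberg over all tested genes, and a gene was called below 0.05. SEs and 95% intervals come from the test's F statistic. CPM values are TMM-scaled. Named genes are all members, PRMT9, every gene of a list of up to 10 genes, up to 3 called genes with the lowest adjusted p of longer lists, exceptions within a list, overlapping and neighbouring genes, and the 3 nearest profiles of 2 members. Other list genes were named after their values were seen, and some list results are not reported here. Shared 50-base windows were counted in GENCODE release 29 transcripts, either strand, and gene types were matched by identifier. The test was checked on simulated counts. Alternatives were other scalings, filters and thresholds, DESeq2 1.42.0, limma 3.58.1 (voom, and log2(RPKM + 1) or log2(RPKM + 0.1)), the replicate number as a block, and each library left out. Replicate libraries differed beyond counting noise (chi-square over degrees of freedom 1.60 in PRMT9 shRNA and 3.00 in control shRNA), so none was counted as a duplicate.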

Additional observations from a re-analysis of the deposited data

How the results depend on the processing

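Under 16 alternatives, of which those in limma on RPKM change the measure, the scaling and the filter together with the test, CDKN1A (0.60 to 0.69 on the log2 scale), CDKN1B (0.27 to 0.39), CDKN1C (0.55 to 3.46), CDKN2C (-0.64 to -0.52) and RBL1 (-0.77 to -0.65) kept their direction and their call. CDKN1C passed the low-count filter of the main fit only through the PRMT9 shRNA libraries, so its kept call is no separate support. RBL2 ranged from 0.13 to 0.24 and lost its call in limma on log2(RPKM + 1) without a filter (0.14, adjusted p = 0.0657), where 30023 genes were tested. RB1, not called, turned to 0.0472 with upper-quartile scaling, and CDKN2D, not called, ranged from -0.3034 to 0.0359 with each library left out, turning positive without PRMT9 shRNA replicate 2. Upper-quartile scaling moved the median log2 fold change of all tested genes by 0.0882, and RB1 moved with it from -0.0412 to 0.0472. The cause of the other changes was not tested. The number of genes called ranged from 7516 to 10376. With each library left out in turn it was 9230 to 9990, where the lone library of a group was assumed to vary like the others, and the 6 called members stayed called. Of 416 list counts, 380 stayed within 1.5 times the main count.

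The replicate numbers were not shown to pair the libraries (correlation of the deviations of same-numbered libraries -0.03). With the replicate number as a block 10307 genes were called, and the 8 tested members kept their calls (RBL2 0.15, RB1 not called). The few counts of CDKN1C, 4 and 7 in the control shRNA libraries, limit the precision of its fold change, and CDKN2A and CDKN2B, at 0, were not tested.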
